A study of Mus musculus with 27 samples.

Results

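The 6 Iroquois genes of the mouse, Irx1 to Irx6, were followed in the developing and adult heart. They were taken by symbol, and each has 1 row in both tables: 6 of the 24025 genes in the bulk table and 6 of the 19020 genes in the single-cell table. Iroquois proteins are homeodomain transcription factors of the TALE class, named for a loop of extra residues inside the homeodomain, and in mammals their genes lie in a pair of clusters of 3. In the mouse heart Irx4 is known as a gene of the ventricles, Irx1 and Irx2 as genes of the ventricular septum and trabeculae, Irx3 as a regulator of conduction in the His-Purkinje system, Irx5 as a repressor that shapes the gradient of ventricular repolarisation, and Irx5 and Irx6 as genes also active in the endocardium.

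The study deleted the locus of the long non-coding RNA Hand2os1 (Uph, called Hand2as in the labels), which lies beside Hand2, a gene for a basic helix-loop-helix transcription factor of the heart. Allele F removes the whole transcribed length and allele D its distal end at the 3′ side; all mice were C57BL/6 and no label names a Cre or a transgene. The 25 bulk libraries of poly(A) RNA were whole E11.5 hearts (3 F/+ and 3 F/F), E16.5 ventricles (3 F/+ and 3 F/F), and cardiomyocytes from mice 8 weeks old (5 +/+, 2 D/+ and 6 D/D). The 2 single-cell libraries were E11.5 hearts, 1 of +/+ and 1 of F/F, each made from 6 embryonic hearts trypsinised and pooled after a sort for living cells. The F/+ and D/+ controls carry 1 deleted allele. Stage and preparation change together, so they cannot be told apart. The labels do not say that bulk libraries came from separate animals, so p-values measure only the spread between these samples.

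Column totals of the bulk table ran from 334194 to 586795 FPKM (fragments per kilobase of transcript, scaled to library size) and 9495 to 11641 genes reached 1 FPKM. The read depth behind FPKM is unknown. Hand2os1 was listed at 0 in all 6 E11.5 bulk libraries of either genotype, at 0.37 to 1.40 FPKM in F/+ and 0 in F/F at E16.5, and at 5.25 to 6.17 in D/+ and 0 to 2.67 in D/D at 8 weeks. In the +/+ libraries it ranged from 0 to 13.5, and the library at 0 is the one labelled +/+ replicate 5. At E11.5 the bulk labels could therefore not be checked by this gene. The single-cell table lists Hand2os1 under its synonym Gm28063, with 1 UMI (unique molecular identifier, 1 per captured molecule) in +/+ and 9 in F/F. These counts are few, but they run opposite to the genotype labels. The cause was not tested, and the labels are used as given. Haemoglobin transcripts made up 10.4% to 29.7% of the FPKM in F/+ and 10.7% to 20.1% in F/F at E11.5, and at most 2.42% later.

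The members are near-copies in 1 stretch of their coding sequence, which is shown because it is what makes them a family and because short reads from it cannot always be given to a single member. It encodes most of the recognition helix of the homeodomain, the part that reads DNA, and is 51 bases long. Capitals mark the 10 positions at which at least 1 member differs, and the other 41 bases are the same in all 6. The stretch was located by residues that all 6 share, which fixed the meaning of 8 of its 17 codons. Part of the identity therefore follows from the choice. Sequences are from the GENCODE vM21 transcripts on GRCm38, in the sense direction.
Irx1: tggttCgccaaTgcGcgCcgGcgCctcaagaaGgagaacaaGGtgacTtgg
Irx2: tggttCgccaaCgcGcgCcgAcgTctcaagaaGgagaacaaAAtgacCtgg
Irx3: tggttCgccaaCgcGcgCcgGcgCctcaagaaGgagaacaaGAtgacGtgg
Irx4: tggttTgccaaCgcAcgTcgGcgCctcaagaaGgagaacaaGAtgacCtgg
Irx5: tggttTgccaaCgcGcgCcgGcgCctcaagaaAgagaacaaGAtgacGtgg
Irx6: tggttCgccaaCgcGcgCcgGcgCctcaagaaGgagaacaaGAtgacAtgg
The stretches lie at chr13:71959983-71960033 for Irx1 (minus strand, exon 2), chr13:72630811-72630861 for Irx2 (plus, exon 2), chr8:91800487-91800537 for Irx3 (minus, exon 2), chr13:73267670-73267720 for Irx4 (plus, exon 5), chr8:92359774-92359824 for Irx5 (plus, exon 2) and chr8:92677383-92677433 for Irx6 (plus, exon 4). Pairs of members had 45 to 50 of the 51 bases in common, and Irx3 and Irx6 were the closest pair here with 50. Over whole transcripts the longest run of identical bases was 88 for Irx3 and Irx6, 65 for Irx2 and Irx5, 50 for Irx3 and Irx5, and at least 23 in each of the 15 pairs. How reads in such runs were assigned was not given in the sources used here.

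Irx1, Irx2 and Irx4 share chromosome 13 and Irx3, Irx5 and Irx6 share chromosome 8 (RefSeq, GRCm38.p6). The first cluster spans chr13:71958232-73269622, 1311.4 kb, and the second chr8:91798511-92680956, 882.4 kb. Neither holds another protein-coding gene. The RefSeq promoter table has entries for Irx2, Irx3 and Irx4. Those of Irx2 and Irx4, neighbours 625.4 kb apart whose bulk levels had a Pearson r of 0.742 over the 25 libraries with their differences of stage, are printed from 250 bases before to 50 after the start, with the E-box letters CANNTG in capitals.
Irx2: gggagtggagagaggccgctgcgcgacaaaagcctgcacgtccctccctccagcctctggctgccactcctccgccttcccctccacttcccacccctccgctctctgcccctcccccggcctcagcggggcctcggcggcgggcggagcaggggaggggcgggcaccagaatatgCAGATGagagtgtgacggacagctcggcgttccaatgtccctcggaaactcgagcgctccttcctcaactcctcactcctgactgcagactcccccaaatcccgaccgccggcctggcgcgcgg
Irx4: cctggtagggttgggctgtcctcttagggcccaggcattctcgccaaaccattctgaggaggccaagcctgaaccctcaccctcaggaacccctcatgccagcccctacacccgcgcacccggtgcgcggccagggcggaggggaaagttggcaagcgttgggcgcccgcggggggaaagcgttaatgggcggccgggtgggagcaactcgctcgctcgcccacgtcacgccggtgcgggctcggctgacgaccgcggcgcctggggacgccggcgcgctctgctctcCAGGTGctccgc
They lie at chr13:72628570-72628869 and chr13:73260247-73260546, both on the plus strand, with 69.0% and 70.7% G and C against a median promoter of 52.7%. The search took CANNTG on both strands and, within it, CATCTG, a sequence bound by Hand2 with its partners. Irx2 had 1 CANNTG, 74 bases before the start, and it reads CATCTG on the other strand. Irx4 had 1 CANNTG, 39 bases after the start, and no CATCTG. The promoter of Irx3 at chr8:91801605-91801904, with 56.0% G and C, had neither. Among all 32851 promoters of this length 72.3% hold CANNTG and 17.2% hold CATCTG, so these counts are those of ordinary promoters. The palindrome ACANNTGT, bound by Iroquois proteins (7.4% of promoters), and the Gata letters AGATAA (11.2%), each searched on both strands, had no match in the 3.

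In whole hearts at E11.5, Irx5 and Irx4 had the highest bulk levels of the family, and all 6 members were present. Irx5 measured 12.4, 19.7 and 17.3 FPKM in the F/+ libraries, a mean of 16.46 ± 3.74 (SD, n = 3). Irx4 measured 14.7, 23.5 and 8.90 FPKM, a mean of 15.7 ± 7.37 (SD, n = 3). Irx3 measured 9.85, 14.9 and 7.22 FPKM. Irx2 and Irx1 averaged 7.09 and 6.92 FPKM and Irx6 5.23 FPKM. The ranges of all neighbours in this order overlapped, so no step in it was larger than the spread between libraries. In F/F the order was Irx5, Irx4, Irx3, Irx6, Irx2 and Irx1, and only the step from Irx4 (14.8 FPKM) to Irx3 (7.30 FPKM) separated the libraries.

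In E16.5 ventricles the order was different, with Irx4 above and Irx6 below all other members. Irx4, the ventricular member, was highest in F/+ at 37.7, 35.5 and 37.0 FPKM, with a mean of 36.7 ± 1.14 (SD, n = 3). Irx3 followed at 13.7, 16.4 and 14.4 FPKM, far below Irx4, and its lowest library (13.69) lay just above the highest of Irx2 (13.68). Irx2 (12.4 FPKM), Irx1 (10.5 FPKM) and Irx5 (9.11 FPKM) came next, and these neighbours overlapped. Irx6 was at 0.28, 0.30 and 0.31 FPKM, under every library of every other member. F/F ventricles had the same order, from Irx4 at 32.9 ± 0.95 (SD, n = 3) to Irx6 at 0.277 FPKM.

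In cardiomyocytes from 8-week mice Irx3 had the highest mean in each genotype. The +/+ libraries measured 29.7, 26.6, 26.1, 32.0 and 33.9 FPKM of Irx3, and the mean was 29.7 ± 3.37 (SD, n = 5). Irx4 measured 18.9, 24.4, 22.0, 12.4 and 16.9 FPKM, all below the lowest Irx3 value. In D/+ and D/D the ranges of Irx3 and Irx4 overlapped, and in D/D replicates 1 and 2 Irx4 (22.2 and 15.4 FPKM) was above Irx3 (21.4 and 12.9 FPKM). Irx5 (9.13 FPKM) and Irx1 (8.50 FPKM) overlapped, as did Irx1 and Irx2 (4.46 FPKM). Irx6 was listed at 0 in all 5 libraries, in both D/+ libraries and in all D/D libraries except replicate 2, which had 0.02 FPKM. Of the summed level of the 6 genes, Irx3 made up 17.2% at E11.5 in F/+, 17.7% at E16.5 in F/+ and 42.0% at 8 weeks in +/+, while Irx4 made up 25.3%, 43.8% and 26.8%.

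**Figure D1:**
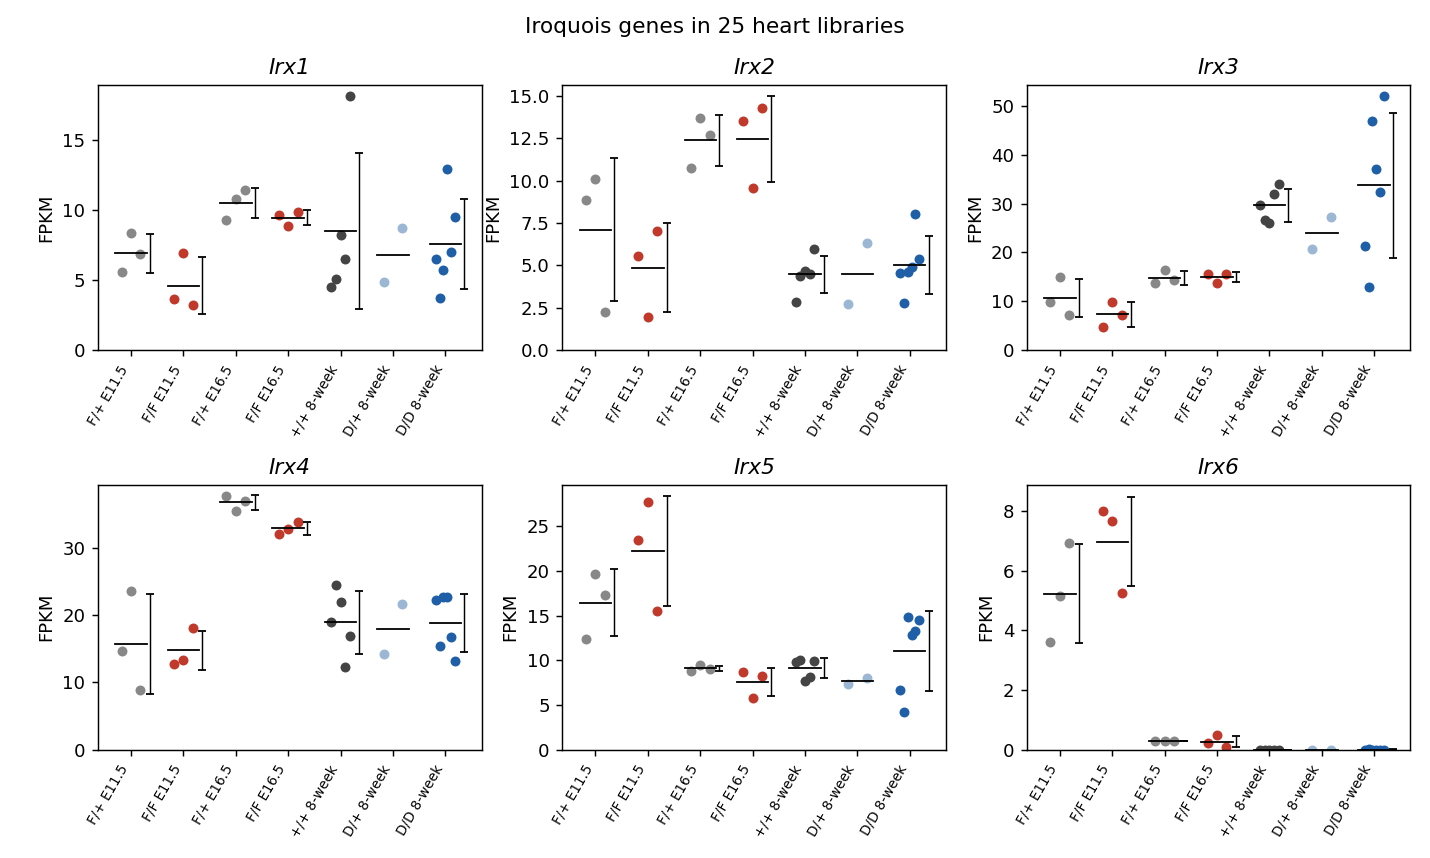
FPKM (vertical axes) of each Iroquois gene in all 25 bulk libraries, with 1 point per library, grouped by stage and genotype, with a line at each group mean and a bar for ± 1 SD where a group has more than 2 libraries. Irx4 peaks in the E16.5 ventricles (31.95 to 37.73 FPKM), Irx3 is highest at 8 weeks, and Irx6 is above 1 FPKM at E11.5 alone.

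The stage comparisons put tests on these steps. From E11.5 hearts to E16.5 ventricles in F/+, Irx4 rose and Irx5 fell, and Irx1, Irx2 and Irx3 did not pass the test (limma on log2(FPKM + 1), Benjamini-Hochberg adjusted p under 0.05 over all genes). Irx4 rose by 1.27 on the log2 scale (SE 0.30, adjusted p 0.00366, limma). Irx5 fell by 0.77 on the log2 scale (SE 0.18, adjusted p 0.00328, limma), from 12.4 to 19.7 FPKM down to 8.83 to 9.44 FPKM. The groups of both genes did not overlap. Irx6 went from 3.62, 5.16 and 6.92 FPKM to 0.28, 0.30 and 0.31 FPKM; it reached the filter of 1 FPKM only through its E11.5 libraries, so it is left out of the count here, and with no filter on low values it fell by 2.23 on the log2 scale (adjusted p 1.025e-06, limma). The values for Irx1, Irx2 and Irx3 were 0.55, 0.91 and 0.49, with adjusted p 0.248, 0.0771 and 0.0798 (limma). Irx2 and Irx3 passed under upper-quartile scaling (adjusted p 0.0276 and 0.0147, limma) and Irx1 and Irx3 under the replicate block (adjusted p 0.0346 and 0.0493, limma). Whether equal replicate numbers belong together across stages was not checked. The 2 of 5 called stand against a background of 45.8% of 11446 genes called, 16.9% higher and 28.8% lower, so the count itself is not particular to the family.

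The same stage comparison in F/F uses other libraries. It called Irx4 (1.12, adjusted p 0.00155), Irx2 (1.30, adjusted p 0.0111) and Irx1 (0.95, adjusted p 0.0397) higher and Irx5 (-1.42, adjusted p 0.0111) lower, by limma with Benjamini-Hochberg adjustment, where 40.5% of all genes were called, 14.4% higher and 26.1% lower. Irx3 was at 0.99 with an adjusted p of 0.0729. The rise of Irx1 lost its call when any F/F library of E16.5, or F/F replicate 1 or 3 of E11.5, was left out (adjusted p 0.0780 to 0.134). All 6 signs were the same in F/+ and F/F. The call for Irx5 in F/+ was lost when all 25 libraries shared 1 fit (adjusted p 0.0537). Irx6, which again reached the filter only through E11.5, was at -2.63 with no filter (adjusted p 4.058e-07, limma).

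From E16.5 ventricles to 8-week cardiomyocytes, Irx3 rose and Irx2 and Irx4 fell in the comparison of +/+ with F/+. Irx3 rose by 0.95 on the log2 scale (SE 0.19, adjusted p 6.273e-04, limma). Irx2 fell by 1.31 on the log2 scale (SE 0.35, adjusted p 0.00486, limma), from 10.8, 13.7 and 12.7 FPKM to 2.83, 4.39, 4.64, 4.47 and 5.98 FPKM. Irx4 fell by 0.96 on the log2 scale (SE 0.27, adjusted p 0.00625, limma). For each of the 3 genes all 8-week libraries lay on the same side of all E16.5 libraries. Irx5 was level (-0.00, adjusted p 0.989), and Irx1 (-0.43, adjusted p 0.264) did not pass the test. Irx6 was below the filter of 1 FPKM in both groups, with means of 0.297 and 0 FPKM. It entered this fit only through the E11.5 libraries, so its value (-0.37, adjusted p 0.0716, limma) is not counted here. Of all genes 68.7% were called here, 24.1% higher and 44.6% lower.

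In D/D against F/F, with the other libraries and other alleles, the same members were called: Irx3 at 0.99 (adjusted p 0.0262, limma), Irx2 at -1.19 (adjusted p 0.00416) and Irx4 at -0.80 (adjusted p 0.00259), against 66.1% of genes called, 23.1% higher and 43% lower. The median of all genes moved by -0.35 in both of these comparisons and by -0.15 and -0.14 in the earlier step, a shift that median-ratio scaling takes to between 0.03 and 0.05. Under that scaling Irx4 fell less, by 0.49 and 0.32 on the log2 scale, and did not pass (adjusted p 0.0771 and 0.157), while the fall of Irx2 and the rise of Irx3 kept their calls. Irx5 gained a call as higher in both, at 0.43 in +/+ against F/+ (adjusted p 0.0411, limma). With the GC trend removed Irx5 again passed in both, and Irx4 in neither. Irx4 in D/D also lost its call under upper-quartile scaling (adjusted p 0.0564, limma). The call for Irx3 in D/D was lost without D/D replicate 3 and without each of the 3 F/F libraries of E16.5 (adjusted p 0.0506 to 0.0813).

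Marker lists moved with stage as well. The summed level of 8 atrial markers was 137 to 148 FPKM in F/+ at E11.5, 43.4 to 47.6 at E16.5 and, in +/+ at 8 weeks, 71.9 to 340.5. In the same order, that of 11 cardiomyocyte markers was 12042 to 14076, 16900 to 18921 and 30210 to 33845 FPKM. That of 10 mesenchymal markers was 500 to 637, 1226 to 1385 and 34.5 to 59.6 FPKM. The summed level of 11 endothelial and endocardial markers was 344 to 379, 330 to 365 and, in +/+ at 8 weeks, 120 to 399 FPKM. That of 8 epicardial markers was 248 to 401, 65.6 to 75.8 and 3.41 to 14.5 FPKM. Their part in the levels of the members was not tested. In bulk samples fewer cells of a type and less RNA per cell cannot be told apart.

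**Figure D2:**
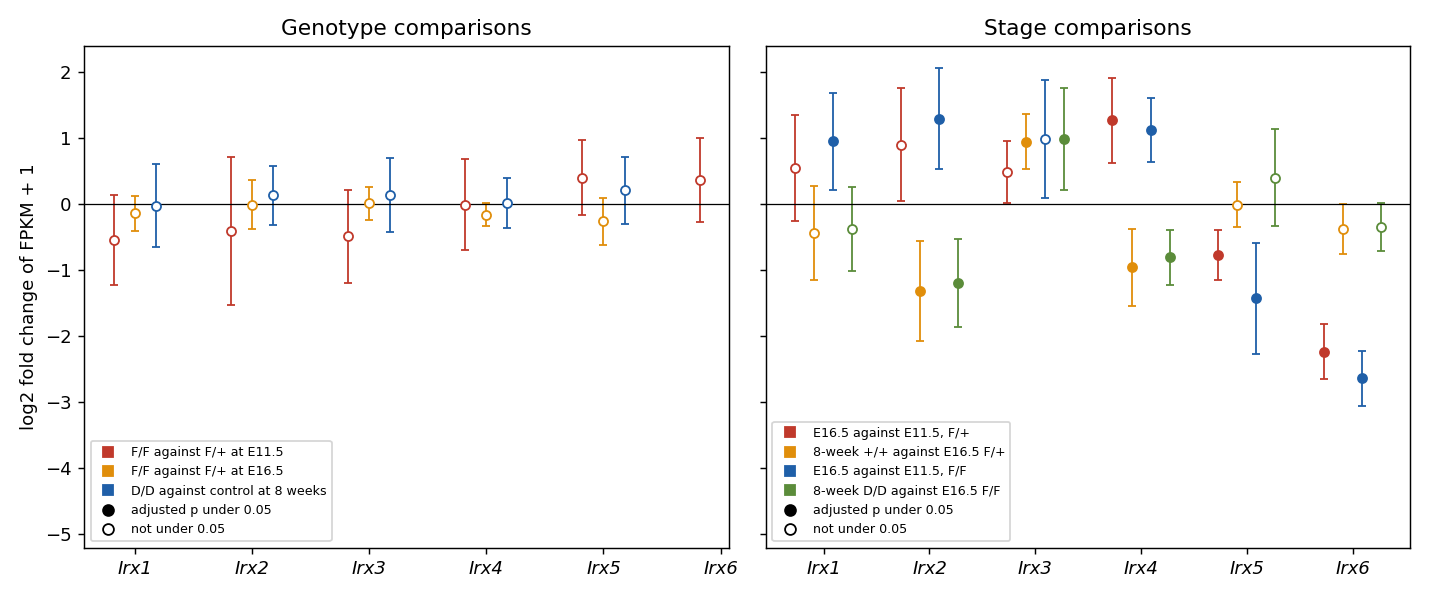
Differences on the log2(FPKM + 1) scale (vertical axis) with 95% intervals for each Iroquois gene in the genotype and stage comparisons; filled points passed the limma test. The stage panels hold all the calls, and each genotype interval includes 0. Irx6 entered the test through its E11.5 libraries alone.

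A list of 24 genes tied to Iroquois factors in the heart by textbook knowledge was read beside the members. Between E11.5 and E16.5 in F/+ 23 were tested, and 7 rose and 8 fell, where 16.9% of all genes rose and 28.8% fell. Kcnip2, the channel subunit that sets the transient outward current with Kcnd2, rose by 4.40 (adjusted p 1.189e-09, limma) and Kcnd2, a known target of Irx5 repression, was at 0.10 (adjusted p 0.774, limma). Hey2, a repressor of the compact ventricular wall, rose by 1.88 (adjusted p 2.272e-06, limma). Hand1, a relative of Hand2, fell by 1.13 on the log2 scale and Bmp10, a trabecular growth factor, fell by 1.49 on the log2 scale (adjusted p 0.00341 and 0.0147, limma). In F/F 6 rose and 6 fell, where 40.5% of all genes were called.

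Between E16.5 and 8 weeks 9 of the 23 rose and 9 fell in +/+ against F/+, where 68.7% of all genes were called, 24.1% higher and 44.6% lower. Kcnd2 rose by 1.41 and Kcnip2 by 2.36 (adjusted p 6.159e-05 and 1.716e-08, limma). Gja5, the connexin of fast conduction that Irx3 is known to promote, fell by 2.57 on the log2 scale, and Gja1, a connexin that Irx3 is known to repress, rose by 1.15 (adjusted p 3.117e-08 and 0.00732, limma). Smyd1, a muscle methyltransferase reported as a partner of Irx4, rose by 0.84 (adjusted p 9.626e-05, limma). In D/D against F/F 9 rose and 7 fell, where 66.1% of all genes were called. The list's median was -0.23 in the earlier step in F/+ and 0.12 in the later, beside -0.15 and -0.35 for all genes. Of the 21 to 23 list genes tested in each genotype comparison limma called 0, with 3, 0 and 0 at an unadjusted p under 0.05 at E11.5, E16.5 and 8 weeks. Among all genes 501 of 11491, 280 of 10699 and 175 of 10249 had such a p. At E11.5 17 of the 21 list genes were higher in F/F and 4 lower, where 52.35% of all genes were higher. At E16.5 10 of 21 were higher, and at 8 weeks 14 of 23.

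No Iroquois gene passed the test between genotypes at any stage, and 0 had an unadjusted limma p under 0.05 in the comparisons at E11.5, E16.5 and 8 weeks. Among all genes 501 of 11491, 280 of 10699 and 175 of 10249 had such a p, so a count of 0 is near that background. At E11.5, where allele F was tested in whole hearts, Irx1 measured 5.55, 8.36 and 6.85 FPKM in F/+ and 3.64, 6.95 and 3.24 in F/F. Irx3 measured 9.85, 14.9 and 7.22 in F/+ and 4.81, 9.83 and 7.25 in F/F. Both had their lowest libraries in F/F, and the groups overlapped. The log2 differences were -0.54 for Irx1 (95% interval -1.23 to 0.15), -0.48 for Irx3 (-1.19 to 0.22) and -0.40 for Irx2 (-1.52 to 0.73).

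The endocardial members had the opposite sign. Irx5 measured 23.5, 27.8 and 15.6 FPKM in F/F and Irx6 7.98, 7.66 and 5.26 FPKM, against the F/+ values above. The upper values lay in F/F, and the groups again overlapped. The log2 differences were 0.40 for Irx5 (-0.17 to 0.97) and 0.37 for Irx6 (-0.27 to 1.01), and Irx4 was level at -0.00 (-0.70 to 0.69). All 6 adjusted p-values were 0.999 (limma). Two-sided exact permutation p-values were 0.2 to 1 over the 6 genes, and 3 against 3 cannot go below 0.1. Of all genes 0.0087% were called and 9.23% had groups that did not overlap, so the 0 of 6 members is near that background.

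Cell type markers differed between the E11.5 groups. The 11 endothelial and endocardial markers summed to 344 to 379 FPKM in F/+ and 407 to 438 in F/F, and the 11 cardiomyocyte markers to 12042 to 14076 and 14606 to 16938. The 5 foregut and lung markers, from tissue that also expresses Iroquois genes, summed to 2.09 to 30.2 in F/+ and 0 to 2.63 in F/F. Their part in the values of the members was not tested.

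At E16.5 allele F was tested in ventricles, and the members varied less between libraries. Irx4 measured 37.7, 35.5 and 37.0 FPKM in F/+ and 32.0, 32.8 and 33.9 in F/F. Irx5 measured 8.83, 9.44 and 9.05 in F/+ and 8.67, 5.75 and 8.25 in F/F. Both genes had all F/F libraries below all F/+ libraries, 2 of the 5 members tested, where 6.78% of all genes did not overlap. The log2 differences were -0.16 for Irx4 (95% interval -0.33 to 0.02) and -0.26 for Irx5 (-0.61 to 0.10), with an adjusted p of 0.9999 each (limma) and the smallest exact permutation p possible, 0.1. Irx1 (-0.14), Irx2 (-0.00) and Irx3 (0.02) overlapped, and Irx6 did not reach the filter. The test called 0.00935% of all genes. Other lists also separated these groups: 4 Y-linked genes summed to 0 to 4.82 FPKM in F/+ and 5.05 to 5.67 in F/F, and the erythroid markers to 146 to 381 and 389 to 8109 FPKM. With a covariate for the Y-linked genes the differences were -0.11 for Irx4 and -0.30 for Irx5; the part of erythroid RNA was not tested.

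The difference of the F effect between the stages was tested directly. It was -0.66 for Irx5 (95% interval -1.35 to 0.03, p 0.0591 and adjusted p 0.999, limma) and between -0.15 and 0.50 for Irx1, Irx2, Irx3 and Irx4. Irx6, at -0.40, reached the filter only through its E11.5 libraries. No member was called against 0.00875% of all genes.

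Allele D was tested in cardiomyocytes at 8 weeks, with 6 D/D libraries against 7 controls (5 +/+ and 2 D/+). Irx5 ranged from 4.21 to 14.8 FPKM in D/D (median 13.1) and from 7.37 to 10.0 in controls (median 8.20). Irx3 ranged from 12.9 to 51.9 FPKM in D/D (median 34.7) and from 20.8 to 33.9 in controls (median 27.2). For both genes D/D libraries lay below and above the range of the controls, with a wider spread in D/D. Irx3 was inside the control range in D/D replicates 1 and 5, and Irx5 in none. The log2 differences were 0.21 for Irx5 (95% interval -0.30 to 0.72) and 0.14 for Irx3 (-0.42 to 0.70). Irx1, Irx2 and Irx4 differed by -0.02, 0.14 and 0.02. All adjusted p-values were 0.9999 (limma), and the exact permutation p-values ran from 0.431 to 0.951 over the 5 genes, where 1716 splits allow 5.83e-04. The test called 0% of 10249 genes (175 at an unadjusted p under 0.05), and 0.0293% had groups that did not overlap.

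The D/D values of Irx3 and Irx5 lay apart along a split among the 8-week libraries. An earlier look at these data had divided the 13 libraries by their first principal component, which holds 44.6% of the variance of all genes. The 5 highest on it, D/D replicates 1 and 2, +/+ replicates 1 and 2 and replicate 1 of D/+, are called the set of 5 here, and the others the set of 8. No label names such sets, the division is not at the largest gap of the component, and it was made with the values in view.

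Within the set of 8, Irx5 measured 14.8, 12.9, 13.3 and 14.5 FPKM in D/D and 7.71, 8.20, 9.90 and 7.98 in controls. All D/D libraries were above all controls, with means of 13.9 ± 0.96 and 8.45 ± 0.99 (SD, n = 4 each). Within the set of 5, Irx5 measured 6.73 and 4.21 FPKM in D/D and 9.80, 10.0 and 7.37 in controls. Here both D/D libraries were below all controls. The log2 differences were 0.66 (95% interval 0.32 to 0.99) in the set of 8 and -0.66 (-1.09 to -0.22) in the set of 5, with adjusted p 0.996 and 1 over all genes (limma). The division was made with the values in view, so these intervals do not measure an effect of D. Of 10249 genes, 468 in the set of 8 and 236 in the set of 5 had an unadjusted limma p under 0.05.

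Irx3, next to Irx5 on chromosome 8, had the same signs. It measured 46.8, 37.1, 32.3 and 51.9 FPKM in D/D and 26.1, 32.0, 33.9 and 27.2 in controls within the set of 8. It measured 21.4 and 12.9 FPKM in D/D and 29.7, 26.6 and 20.8 in controls within the set of 5. The D/D libraries were mostly high in the first set and mostly low in the other, with 1 library of each set inside the control range. The log2 differences were 0.47 (0.05 to 0.89) and -0.58 (-1.13 to -0.04), with adjusted p 0.996 and 1 (limma). The limit given for the intervals of Irx5 holds for these as well.

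Tested as an interaction, the D effect differed between the sets by -1.31 for Irx5 (adjusted p 0.687, limma) and by -1.05 for Irx3 (adjusted p 0.975), so neither passed over all 10249 genes, of which 0 were called (462 at an unadjusted p under 0.05). Irx1, Irx2 and Irx4 had interaction values from -0.06 to 0.22. Hand2 had the opposite sign, with an interaction of 1.21 (adjusted p 0.975, limma): its mean was 80.5 FPKM in D/D and 35.0 in controls within the set of 5, and 66.4 and 67.6 within the set of 8. The 11 endothelial and endocardial markers summed to 214 to 227 FPKM in controls and 214 to 217 in D/D within the set of 5, and to 120 to 399 and 162 to 560 within the set of 8. The 11 cardiomyocyte markers summed to 30210 to 31773 and 36565 to 37607 in the set of 5, and to 31245 to 33845 and 24965 to 31784 in the set of 8. Their part in the result was not tested.

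**Figure D3:**
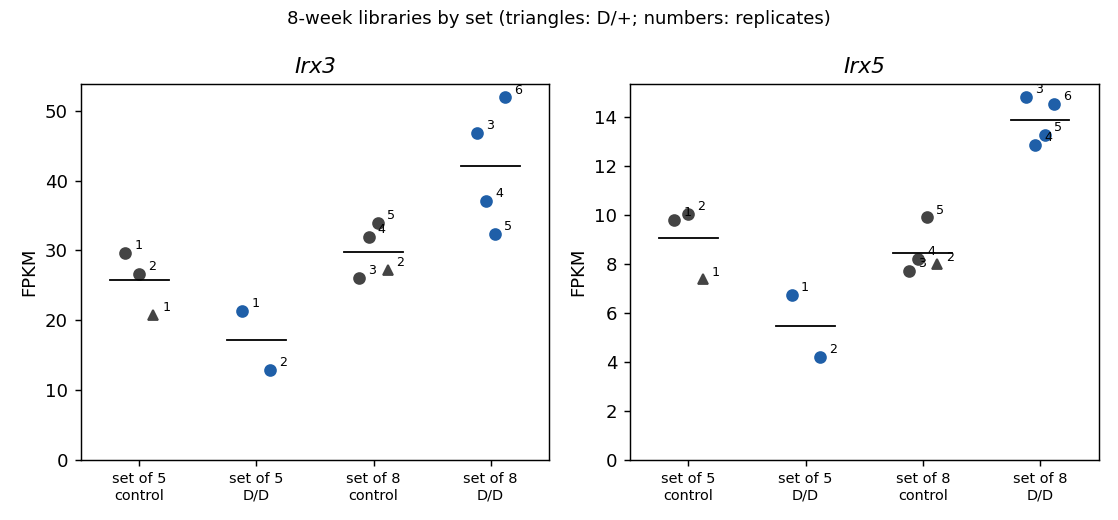
FPKM (vertical axes) of Irx3 and Irx5 in the 13 libraries of 8-week cardiomyocytes, by set and genotype, with 1 point per library, its replicate number beside it and a line at each mean; triangles are D/+. Irx5 in D/D lies above all controls in the set of 8 (mean 13.9 against 8.45 FPKM) and below them in the set of 5.

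The single-cell libraries place each member in the E11.5 heart. The tables held 2563 barcodes in +/+ and 3469 in F/F with median depths of 13369 and 13403 UMIs, and 2503 and 3368 cells were used. Clustering left the Iroquois genes out and gave 17 clusters, of which clusters 8 and 14 were left unnamed. Cluster 8 had 7 of 11 cardiomyocyte markers leading, and cluster 14 had 4 of 10 mesenchymal ones. The libraries share 18 barcode sequences, whose 36 cells held at most 11 UMIs of any member. Each genotype had a single library, so the genotypes were not tested against each other. Levels are UMIs of the gene relative to all UMIs of the class, in the usual CPM scale, and all intervals cover counting error only; counts from the 3′ end do not depend on transcript length.

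Over both libraries together, Irx1, Irx2, Irx3 and Irx4 were highest in cardiomyocyte-like cells, and Irx5 and Irx6 in endothelial- and endocardial-like cells. In F/F alone this did not hold for Irx3 and Irx1, with intervals that overlapped. Irx3 was at 15.98 CPM in epicardial-like cells and 15.5 in cardiomyocyte-like cells. Irx1 was at 8.64 CPM (8 UMIs) in the unnamed clusters and 5.02 in cardiomyocyte-like cells. Irx4 reached 46.2 CPM in the 580 cardiomyocyte-like cells of +/+ (95% interval 41.9 to 50.8) and 47.2 CPM in the 930 of F/F (43.7 to 51.02). These cells held 96.6% and 93.4% of all Irx4 UMIs. Irx3 reached 18.2 and 15.5 CPM there, Irx2 13.4 and 9.25 CPM, and Irx1 9.76 and 5.02 CPM. Irx5 was at 4.72 and 2.48 CPM in the same cells, while Irx6 gave 1 UMI in each library.

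In the 187 and 275 endothelial- and endocardial-like cells, Irx5 reached 77.1 CPM (66.2 to 89.3) in +/+ and 64.2 CPM (56.0 to 73.3) in F/F. Irx6 reached 18.5 CPM (13.4 to 24.9) and 14.0 CPM (10.3 to 18.6). This class held 79.2% and 82.7% of the Irx5 UMIs and 95.6% and 92.3% of the Irx6 UMIs. Irx3, also on chromosome 8, was at 4.31 and 2.92 CPM in these cells. It had its other site in epicardial-like cells, with 11.8 CPM (7.77 to 17.2) in 147 cells of +/+ and 15.98 CPM (12.3 to 20.4) in 250 of F/F, where each other member was at most 1.499 CPM. Erythroid-like cells, which should lack these genes and show the level of free RNA, had at most 1.48 CPM of any member.

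**Figure D4:**
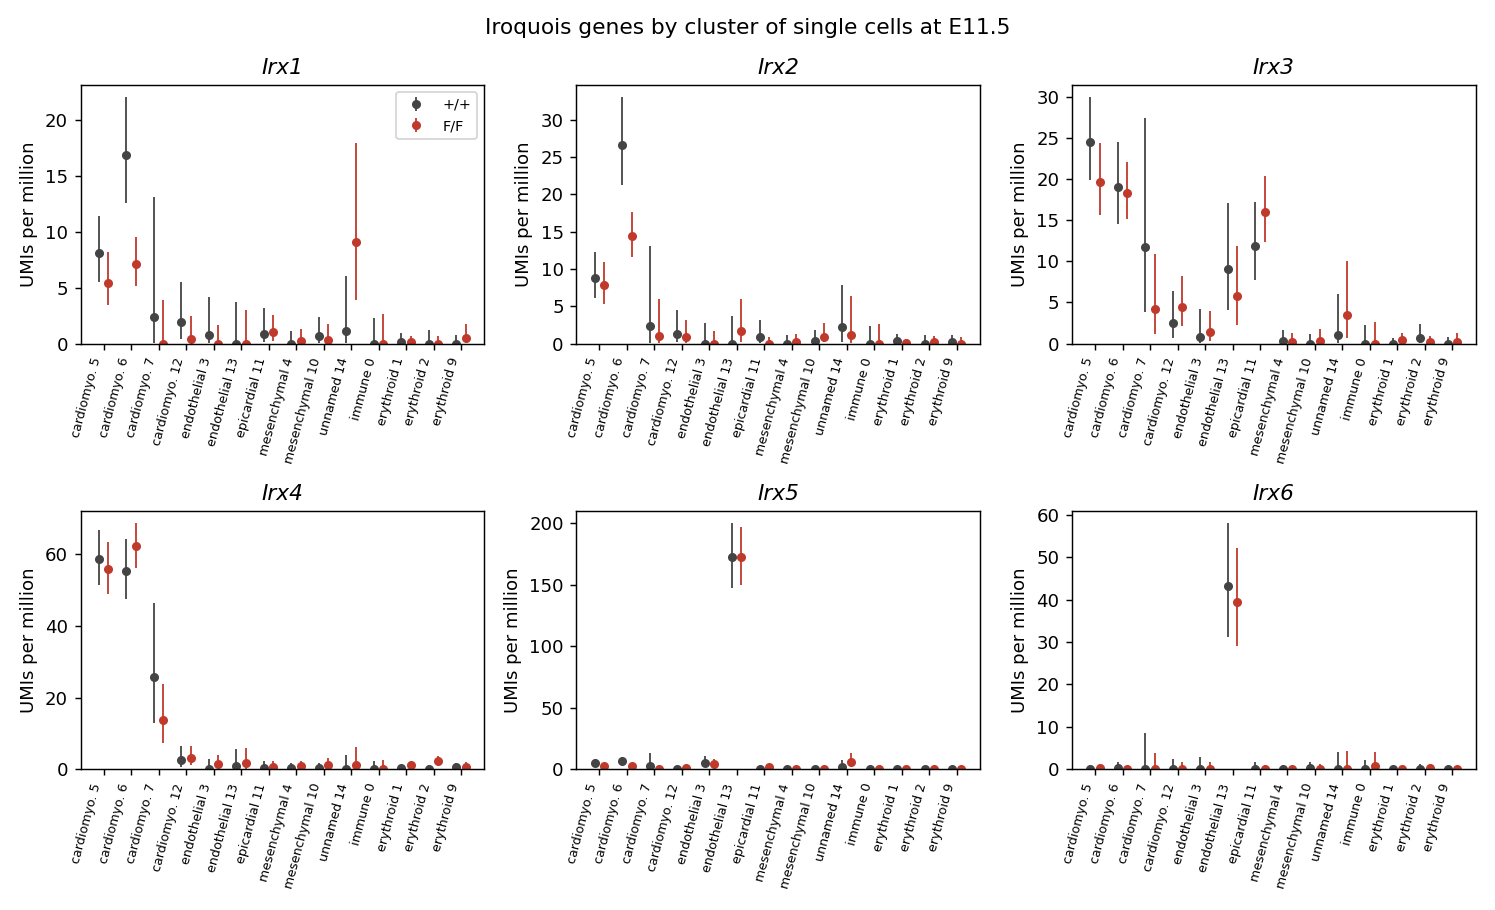
CPM (vertical axes, a scale per gene) of each Iroquois gene in 14 cell clusters of the +/+ and F/F libraries, with exact Poisson 95% intervals. Irx5 and Irx6 stand out in cluster 13 alone among the endothelial clusters (172 CPM of Irx5 in both libraries), and Irx4 in clusters 5 and 6.

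Within the endothelial class the 2 genes belonged to 1 of the 2 clusters. Cluster 13 (59 cells of +/+ and 82 of F/F, led by Emcn, Tm4sf1, Plvap and Gja4) had 172 CPM of Irx5 in either library (intervals 148 to 200.1 and 150 to 197). It had 43.1 and 39.4 CPM of Irx6, and 9.02 and 5.74 CPM of Irx3 (9 and 7 UMIs). Cluster 3 (128 and 193 cells, led by Stmn2, Klf2 and Aqp1) had 5.29 and 4.53 CPM of Irx5 and no UMI of Irx6, which allows up to 1.045 CPM over both libraries. Both clusters carry the general endothelial markers (10 and 11 of 11). Cluster 13 held 77.6% of all Irx5 UMIs and 93.8% of all Irx6 UMIs. At the finer level Irx5 was at 183 CPM in sub-cluster E1 (80 cells, led by Tmem100, Col26a1 and Ccl2), where Irx5 and Irx6 were among the 10 leading genes. It was at 195 CPM in E5 and 140 CPM in E8, both led by cell-cycle genes such as Cenpe and Ccne2, and at most 15.99 CPM in the other 6 sub-clusters.

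After each cell was thinned to 5000 UMIs, Irx5 was detected in 56.7% of cluster 13 cells (95% Clopper-Pearson interval 47.9 to 65.2) and Irx6 in 16.4% (10.6 to 23.8), against 76.6% and 36.2% without thinning. In erythroid-like cells, at a median of 11352 UMIs, the thinned shares were 0% for Irx5 (0 of 2050 cells, which at the limit of 3 counts allows a share of cells with a UMI of up to 0.146%) and 0.049% for Irx6. Irx6 was found in 22.4% (13.6 to 33.4) of the cluster 13 cells with Irx5 and in 8.62% (2.86 to 19.0) of those without; these intervals overlap, and 17 cells had both.

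Among cardiomyocyte-like cells the members were graded by cluster. Clusters 5 and 6 hold most of the class, cluster 5 the larger part in +/+ (239 of 580 cells) and cluster 6 in F/F (412 of 930). Irx4 was alike in cluster 5 (58.6 CPM in +/+ and 55.8 in F/F; led by the trabecular genes Nppa and Cited1) and cluster 6 (55.3 and 62.1; led by Myl2 and Myoz2). It was lower in cluster 7, led by Cacna2d2 and Shox2 (25.8 and 13.8 CPM), and 2.52 and 3.12 CPM in cluster 12, led by the outflow genes Rspo3 and Bmp4. Irx3 was at 24.5 and 19.6 CPM in cluster 5 and 19.1 and 18.3 in cluster 6.

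Irx1 and Irx2 were higher in cluster 6 than in cluster 5. Irx2 was at 26.7 CPM (21.3 to 33.0) in cluster 6 of +/+ and 8.85 CPM (6.16 to 12.3) in cluster 5. In F/F the values were 14.4 CPM (11.6 to 17.7) and 7.81 CPM (5.37 to 10.96). Irx1 was at 16.8 CPM (12.6 to 22.0) and 8.09 CPM (5.53 to 11.4) in +/+, and at 7.12 and 5.44 CPM in F/F, where the intervals overlapped. Their highest levels were in sub-cluster C9 (42 and 50 cells, led by Cck and Lyz2). It had 64.0 and 42.8 CPM of Irx2 and 43.3 and 19.8 CPM of Irx1, beside 62.4 CPM of Irx4 over both libraries. C9 was left unnamed, with 3 of 5 compact-ventricle markers and 3 of 8 atrial ones leading. Irx2 was itself among the 10 genes that led C9.

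Over both libraries, cells of the atrial, outflow and atrioventricular kind carried few Iroquois UMIs, with 1 exception. In sub-cluster C10 (80 cells, 7 of 8 atrial markers leading) Irx4 gave 7 UMIs in +/+ (22.2 CPM, 8.91 to 45.7) and 0 in F/F, and Irx1 gave none. In the outflow sub-clusters C5 and C12 Irx4 was at 2.99 and 5.29 CPM. The exception was C7 (27 cells), with 5 of 5 atrioventricular canal markers and 5 of 8 atrial ones leading. It had 14 UMIs of Irx4 (48.4 CPM), 6 of Irx3 and none of Irx1 or Irx2. Of the Irx4 UMIs, 13 were from F/F (62.5 CPM) and 1 from +/+ (12.4 CPM, 0.313 to 68.8). In the trabecular sub-clusters C2 and C8 (7 of 7 markers leading each), Irx3 was at 29.2 and 24.6 CPM over both libraries and Irx1 at 13.8 and 6.30 CPM.

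**Figure D5:**
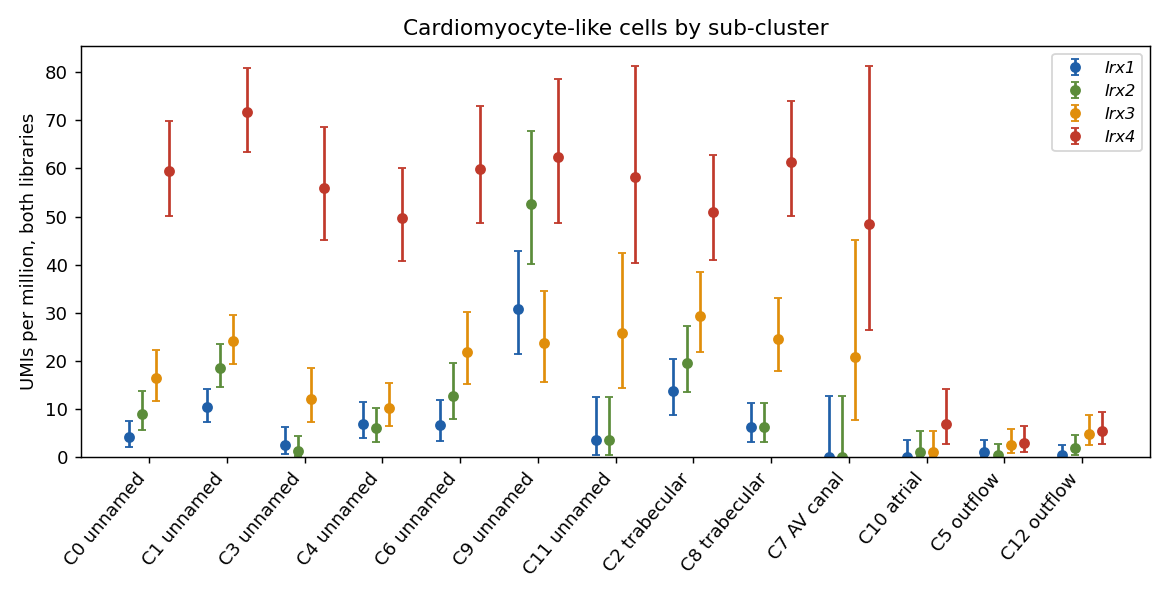
CPM (vertical axis) of Irx1, Irx2, Irx3 and Irx4 in 13 sub-clusters of the cardiomyocyte-like cells. Points are CPM over both libraries and bars exact Poisson 95% intervals. C9 has the highest levels of Irx1 (30.7 CPM) and Irx2 (52.7 CPM). The atrial and outflow sub-clusters (C10, C5 and C12) have low levels of all over both libraries, with Irx4 in C10 at 22.2 CPM in +/+ and 0 in F/F.

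Between the libraries Irx1, Irx2 and Irx5 had a lower CPM in the cardiomyocyte-like cells of F/F, with intervals that did not include 1. Irx1 had 89 UMIs in +/+ and 69 in F/F, and its CPM in F/F was 0.515 of that in +/+ (95% interval 0.370 to 0.713). Irx2 had 122 and 127 UMIs and a ratio of 0.691 (0.535 to 0.893). In cluster 6 alone the ratios were 0.423 (0.278 to 0.641) and 0.539 (0.396 to 0.734), and in cluster 5 they were 0.673 (0.376 to 1.19) and 0.882 (0.531 to 1.46). Irx5 in cardiomyocyte-like cells, with 43 and 34 UMIs, had a ratio of 0.525 (0.325 to 0.842). By sub-cluster the CPM of Irx1 was lower in F/F in C1, C2, C4, C5, C6, C9, C12 and C13. It was higher in C0, C3, C8 and C11, with at most 7 UMIs per library in each. Counts were also low on the other side, with at most 8 UMIs per library in C4, C5, C6, C12 and C13. The interval of the ratio left out 1 only in C2 (0.287, 0.084 to 0.795) and C9 (0.457, 0.207 to 0.957).

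Irx4 had a ratio of 1.02 (0.904 to 1.16), Irx3 of 0.852 (0.692 to 1.05), Irx5 in cluster 13 of 0.999 (0.813 to 1.23) and Irx6 in cluster 13 of 0.914 (0.593 to 1.41). These compare 2 libraries, not the genotypes. In bulk hearts of the same stage, against F/+ and not +/+, the log2 differences were -0.54 for Irx1, -0.40 for Irx2, -0.48 for Irx3 and 0.40 for Irx5, and none passed the test. Over all cells the ratios of these genes were 0.673, 0.797, 1.09 and 0.884. In unnamed cluster 14, led by Rgs5, Irx1 had 1 UMI in +/+ and 8 in F/F.

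After thinning, 18.9% of 1453 cardiomyocyte-like cells had a UMI of Irx4 (41.7% unthinned), 7.43% of Irx3, 4.27% of Irx2 and 3.24% of Irx1, while erythroid-like cells had 0.39% for Irx4 and at most 0.244% for the others. Irx1 and Irx2, genes of 1 cluster on chromosome 13, were found together in 11 cells, where the product of their shares gives 2.01. Irx2 was detected in 23.4% (12.3 to 38.0) of cells with Irx1 and in 3.63% (2.71 to 4.74) of cells without. Irx3 and Irx5, neighbours on chromosome 8, were found together in 9 cells against a product of 1.49. Irx5 was detected in 8.33% (3.88 to 15.2) of cells with Irx3 and in 0.82% (0.41 to 1.46) of cells without. Within cluster 6 the counts were 8 cells for Irx1 and Irx2 (product 2.15) and 7 for Irx3 and Irx5 (product 0.97). Pairs from different chromosomes also had more cells with both than the product: 13 against 4.61 for Irx2 and Irx3, 4 against 0.65 for Irx1 and Irx5, and 28 against 20.4 for Irx3 and Irx4. Irx1 and Irx4, of 1 cluster on chromosome 13, were together in 14 cells against 8.9, and in 7 against 7.22 within cluster 6. These are descriptions over cells of 2 libraries, with no test.

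The genes most like the members were taken over the 25 bulk libraries by Pearson r of log2(FPKM + 1) among 7356 genes. They were Cspg4 for Irx2 (0.889), Atp6v0c for Irx3 (0.927), Scmh1 for Irx4 (0.913), Dapk3 for Irx5 (0.863) and Hapln1 for Irx6 (0.988). Among the members themselves Irx2 with Irx4 (0.742) and Irx5 with Irx6 (0.741) were highest and Irx3 with Irx6 was at -0.79. The 25 libraries differ in stage and preparation, so these values include those differences. How much of each r they make up was not tested. Over 28 sums by cluster and library in single cells, Irx4 was most like Abcc9 (0.982), Irx2 most like Irx4 (0.881, as with Irx1), Irx3 most like Tgm2 (0.892) and Irx5 most like Gja4 (0.939), and Irx5 with Irx6 was at 0.973. Irx5 and Irx6 therefore stood together across the cell clusters, where Irx3 of the same gene cluster was at 0.259 with Irx5. In bulk both had their highest means at E11.5, but at 8 weeks in +/+ Irx6 was at 0 and Irx5 averaged 9.13 FPKM. The bulk r therefore does not show this pair together apart from stage.

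The genes at the edges of the clusters were followed through the same steps. Ndufs6, a subunit of mitochondrial complex I that lies 50.3 kb from Irx4's side of the chromosome 13 cluster, rose by 1.67 from E11.5 to E16.5 in F/+ and by 1.54 in F/F (adjusted p 5.778e-05 and 3.319e-06, limma), as Irx4 did. From E16.5 to 8 weeks it was at 0.04 (adjusted p 0.882, limma), where Irx4 fell; the difference between the genes was not tested. Adamts16, on the other side at 1116.4 kb, was at most 0.40 FPKM. Mmp2, a matrix protease 146.3 kb past Irx6, fell by 1.98 on the log2 scale from E16.5 to 8 weeks (adjusted p 6.064e-06, limma). Fto, 130.1 kb from Irx3, averaged 25.3 to 37.2 FPKM over the 7 groups and had a stage difference of -0.50 in F/+ (adjusted p 0.0678, limma) and -0.48 in F/F (adjusted p 0.0400). Crnde, the long non-coding RNA beside Irx5, was not called in any of the 7 comparisons that list it; in single cells it was at 12.2 CPM in cardiomyocyte-like cells and 14.4 CPM in cluster 13, against 2.18 CPM in erythroid-like cells. Irx3os and Irx4os were not matched in the bulk table, and Irx3os had 26 UMIs in the single-cell table.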

How the data were processed

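The authors deposited bulk values in FPKM; no header names the unit, which was inferred from the values, and whole reads could not be recovered. Per the submitters' processing notes, CASAVA, TopHat2 2.0.11 and build mm9 were named for bulk libraries and Cell Ranger and build mm10 for single cells. The single-cell table holds UMI counts per barcode as deposited by the authors. The members and all lists were chosen with earlier results of these data known. Bulk values were fitted as log2(FPKM + 1) with limma 3.58.1 (R 4.3.3) and an intensity trend, for genes that averaged 1 FPKM or more, with Benjamini-Hochberg adjustment over all genes at 0.05; fold changes on this scale understate those of low genes. Each stage had its own genotype fit, the control and the homozygous groups each shared a stage fit, and the method was tested on simulated data. Genes named are the members, the neighbours of both clusters, the list of 24 and the genes most alike by r. Some genes that this rule names are not reported here. Barcodes with 500 genes were kept; scrublet's automatic threshold marked 0.1%, so the highest scores were removed at 0.8% per 1000 barcodes (52 and 96). Scanpy 1.11.5 clustered both libraries with 2000 variable genes without the members, 30 components, 15 neighbours and Leiden resolution 1. Names were rebuilt from markers (at least 3, leading by 2 times, or 1.5 times in sub-clusters). Some groups that reach this count, such as clusters 8 and 14 and sub-cluster C9, were left unnamed. Alternatives were pseudocount, filter, scaling, covariates, shared fits and libraries left out; the term for the 2 sets of 8-week libraries was chosen after seeing the data. Intervals are 95%.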

Additional observations from a re-analysis of the deposited data

Results flagged for a closer look

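Irx1 measured 18.17 FPKM in the library labelled +/+ replicate 5 at 8 weeks, against 4.53, 5.05, 8.22 and 6.52 FPKM in the other +/+ libraries. Its gap to the next library was 0.729 of the range of the group, above the critical value of 0.71 for 5 samples; chance flags about 1 in 20 groups. It is the library in which Hand2os1 is listed at 0. Without it, Irx1 was lower at 8 weeks than at E16.5 by a log2 difference of -0.73 and passed the test, which it did not with all libraries (-0.43).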

How the results depend on the processing

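No member was called between genotypes under any alternative run (pseudocount, filter, scaling, GC trend, Y-linked covariate, replicate block, 1 fit of all 25 libraries, each library left out), so the genotype signs below carry no call. With Irx6 included, the count of members called from E11.5 to E16.5 in F/+ was 3, and 5 under upper-quartile scaling and 5 under the replicate block; leaving out single libraries gave 2 to 4 there, 3 to 4 for 8-week +/+, 4 to 6 in F/F and 2 to 3 for 8-week D/D. Whether the replicate numbers pair the samples could not be decided. Between genotypes at E11.5 and E16.5 same-number correlations ran from -0.435 to 0.082 and others from -0.409 to 0.462, over 3 libraries per group. The stage and 8-week comparisons were not checked. Of all genes, 1 was called at E11.5 and 24 in 1 fit of all libraries, and 1 and 6 for the difference of the F effect between stages.

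Signs turned as follows. With the Y-linked covariate Irx4 at E11.5 was 0.13 and Irx3 at E16.5 was -0.125, and with a pseudocount of 0.1 Irx4 at E11.5 was 0.0011. With the GC trend removed Irx2 at E16.5 was 0.0093, Irx4 in D/D -0.0072, Irx1, Irx5 and Irx6 in 8-week +/+ against F/+ 0.12, 0.55 and 0.085, and Irx1 and Irx6 in D/D against F/F 0.16 and 0.11. With median-ratio scaling Irx1 was 0.00025 and 0.074 in those 2 comparisons and Irx5 0.43 in the former, and with upper-quartile scaling Irx5 was 0.33. Under the replicate block Irx3 in D/D was -0.12 and Irx5 in 8-week +/+ 0.0033. Leaving out single libraries gave ranges across 0 of -0.96 to 0.033 (Irx2, E11.5), -0.33 to 0.32 (Irx4, E11.5), -0.10 to 0.16 (Irx2, E16.5), -0.036 to 0.09 (Irx3, E16.5), -0.036 to 0.95 and -0.48 to 0.18 (Irx2 and Irx4, difference between stages), -0.18 to 0.18, -0.011 to 0.37 and -0.069 to 0.11 (Irx1, Irx3 and Irx4, D/D) and -0.036 to 0.050 (Irx5, 8-week +/+). The cause of these changes was not tested. In single cells 4 members were highest in cardiomyocyte-like cells under each of the 4 alternatives run, taken over both libraries. In F/F alone Irx1 and Irx3 were not highest there in the main run. Irx4 in F/F was 51.3 CPM without haemoglobin and mitochondrial genes. Depth limits Irx1 and Irx6, with 182 and 97 UMIs in all.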
